A study of Nomascus leucogenys with 4 samples.

Results

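The regions described here are stitched clusters of PU.1 sites found in both of 2 gibbon cell lines. The assay was ChIP-seq, sequencing of DNA that an antibody to PU.1 pulled down from fixed chromatin, in Epstein-Barr virus-transformed lymphocyte lines of Nomascus leucogenys, the northern white-cheeked gibbon. The individuals Ricky (replicate 1) and Vok (replicate 2) each gave 1 ChIP library and, without antibody, 1 input library, 4 libraries in all. The labels give no treatment, age or sex, and both groups of libraries share the viral transformation, which limits them as a model of resting lymphocytes. After duplicate removal the ChIP libraries held 39743757 and 42905332 fragments, and the inputs 31218578 and 40288483. The peak lists were called separately and hold 12399 and 7133 peaks.

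PU.1 is an ETS-family transcription factor that binds purine-rich DNA around a GGAA core and is required for the B-lymphoid and myeloid lineages. It commonly works at enhancers together with partner factors such as IRF4 and IRF8 in B cells. Several sites of one factor can lie close together in one regulatory region, and neighbouring sites are often joined by a fixed distance when large enhancers are mapped. In virus-transformed B cells PU.1 is also one of the cellular factors through which the viral protein EBNA2 reaches DNA.

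The members were chosen by peak calls and position. On placed autosomes, a replicate 1 peak with 1 bp or more in common with a replicate 2 peak was a shared site, and 5294 of 11362 replicate 1 peaks met this (46.6%). Neighbouring shared sites separated by at most 12500 bp were joined, and groups of at least 3 sites were kept. This left 290 sites in 83 clusters, 5.48% of the shared sites. A further 702 sites lay in 351 groups of 2, and 4302 sites stood alone and are called single sites. The number of clusters and their close spacing follow from that rule and are given as a description. Of the 83 clusters, 67 held 3 sites, 9 held 4, 5 held 5, and 1 each held 12 and 16. Coordinates are those of the deposited replicate 1 list, counted from 1. No source used here names the genome build, so genes, motifs and underlying sequence were not analysed here, and neither were loci of B-cell markers that could check the labelled cell type.

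One stretch of chromosome 6 stood apart and touches most results below. Between positions 26108791 and 26218014, a length of 109 kb, 4 clusters of 3, 16, 12 and 4 sites held 35 of the 290 clustered sites (12.1%). These 35 sites carried 28.7% of the summed summit pileup of all clustered sites in replicate 1 and 57.6% in replicate 2. Summit pileup, the peak caller's coverage at a peak's highest point, is read here as a number of fragments. The file headers state that the larger of the ChIP and input data sets is scaled to the smaller. All deposited pileups are whole numbers, and whether any was scaled was not tested. The median pileup of the 35 sites was 304 in replicate 1 and 726 in replicate 2, and all 35 were higher in replicate 2. In replicate 2, 3 of the 35 sites overlap a single peak of pileup 726. All replicate 2 values of the block, including its share of the summed pileup, therefore count that peak 3 times. Their fold enrichment, the authors' ratio of pileup to local background, was low, at 1.46 to 5.70 (median 2.26) in replicate 1 and 1.54 to 3.90 (median 2.09) in replicate 2. The background at their summits, computed from those values, had a median of 132 and 335 fragments. That was 39.7 and 86.6 times the lowest background in each list. These sites were therefore tall over a raised background, and the cause of that background was not tested.

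A site was said to have high background when the background in either list was above 2 times the lowest of that list. This held for 53 of the 290 clustered sites (18.3%, exact Clopper-Pearson 95% interval 14.0% to 23.2%), against 3.76% of all shared sites and 122 of the 4302 single sites (2.84%, interval 2.36% to 3.38%). Intervals here cover counting error only, and amplified fragments are not independent molecules. Clustered sites are neighbours by the rule, so all intervals over sites treat dependent sites as independent and are too narrow. In 69 clusters no site had high background, in 7 some did and in 7 all did. The 7 clusters of high background alone held 44 sites. They were the 4 on chromosome 6 and 1 each on chromosomes 12 (from 41045079), 15 (from 110251294) and 5 (from 84664778). The 69 clusters without such a site, called low-background clusters, held 224 sites, and results are given for them beside the whole.

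**Figure D1:**
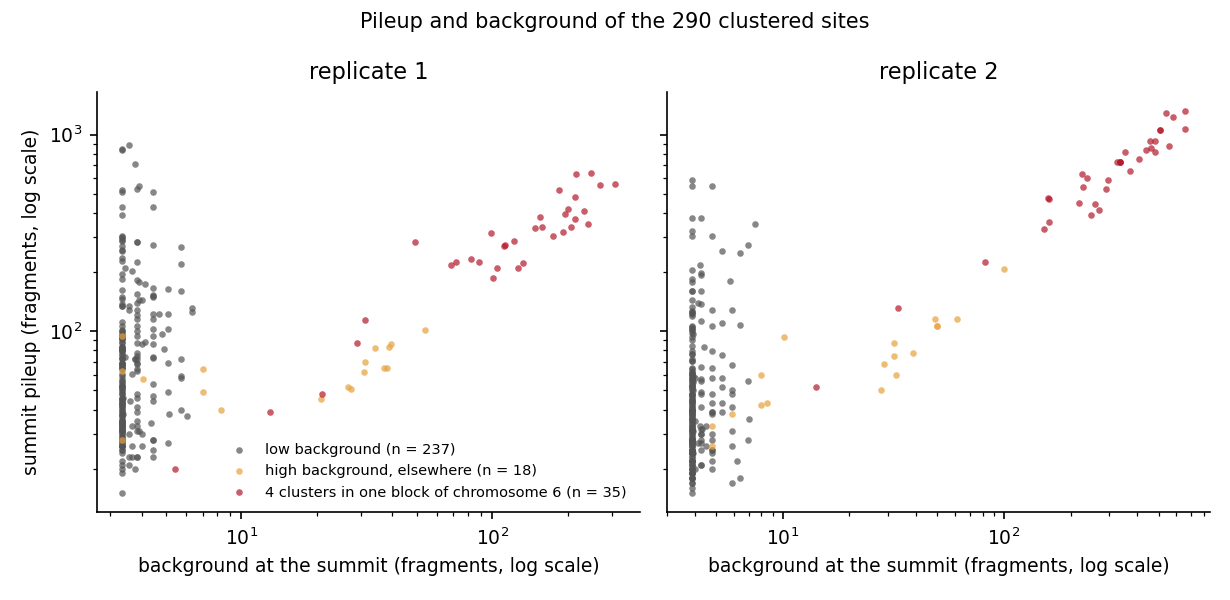
Summit pileup (fragments, log scale) against the computed background at the summit (fragments, log scale) for the 290 clustered sites, 1 point per site, in replicate 1 (left) and replicate 2 (right). The 35 sites of the chromosome 6 block lie mostly at the upper right, with median backgrounds of 132 and 335 fragments, while low-background sites lie along the lowest background at the left.

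Clusters were mostly sequence with no called peak between narrow peaks. Their span had a median of 12.47 kb and ran from 1.84 to 29.8 kb, and the 83 spans together covered 1028 kb. Peaks covered a median of 14.7% of a span (4.23% to 66.8%). The 207 gaps between neighbouring sites had a median of 3501 bp (quartiles 1108 and 6833 bp), and 47 of them (22.7%) were under 1 kb. In groups of 2 the 351 gaps had a median of 5012 bp, and 13.1% were under 1 kb. In the low-background clusters the 155 gaps had a median of 4456 bp and 15.5% were under 1 kb, a smaller share than over all clusters. The rule bounds every gap, so these distances carry no test.

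The widest cluster was the 16-site cluster on chromosome 6 (26129181 to 26158998, 29.8 kb). Next came a cluster of 5 sites on chromosome 1a (44440588 to 44463224, 22.6 kb) and 1 of 3 sites on chromosome 5 (55684882 to 55705817, 20.9 kb). The chromosome 5 cluster was sparse, with gaps of 12352 and 7503 bp. Its pileups were 69, 55 and 28 in replicate 1 and 41, 31 and 20 in replicate 2. At the other extreme, 3 sites on chromosome 7b (17696190 to 17698025) lay within 1.84 kb, with gaps of 314 and 377 bp. These were weak sites, with pileups of 15, 27 and 26 in replicate 1 and 21, 20 and 22 in replicate 2. A cluster on chromosome 12 (41444896 to 41447171, 2.28 kb) was almost as tight and stronger. Its pileups were 76, 34 and 184 in replicate 1 and 50, 23 and 65 in replicate 2, and both individuals ordered its sites alike. Tight spacing thus occurred at weak and at strong sites.

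Clustered sites had higher summit pileups than single sites, and the size of the difference depended on the background. In replicate 1 the median pileup was 72 (quartiles 39 and 149.75) at clustered sites and 48 (32 and 86) at single sites. In replicate 2 it was 47.5 (28 and 107.75) against 33 (24 and 54). The middle ranges overlapped in both individuals. The difference of medians was 0.58 on the log2 scale in replicate 1 (1.5-fold) and 0.53 in replicate 2 (1.44-fold), a mean of 0.56 ± 0.042 (SD, n = 2). Both individuals showed the same direction, and the exact two-sided sign-flip permutation test over the 2 individuals gave p = 0.5, the smallest it can give. Sites in groups of 2 had medians of 52 and 36, between single and clustered sites.

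Fold enrichment did not follow the pileup. Its median was 10.7 at clustered and 10.4 at single sites in replicate 1, and 6.57 at both in replicate 2. With the low-background clusters alone, the pileup medians were 65.5 against 48 in replicate 1 and 39 against 33 in replicate 2, differences of 0.45 and 0.24 on the log2 scale over 224 clustered and 4180 single sites. Fold enrichment in the same clusters had medians of 13.7 against 10.5 and 7.59 against 6.57, differences of 0.37 and 0.21. The low-background class keeps background within 2 times the lowest of each list, so there the fold enrichment largely follows from the pileup and is no separate evidence. Clustered peaks were also wider, with median widths of 468 against 415 bp in replicate 1 and 373.5 against 320 bp in replicate 2.

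High pileups were more frequent in clusters. A pileup of at least 100 was reached by 64 of the 224 low-background clustered sites in replicate 1 (28.6%, interval 22.8% to 35.0%) and by 37 in replicate 2 (16.5%, interval 11.9% to 22.0%). Among single sites of any background the shares were 20.7% (890 of 4302) and 10.4% (446 of 4302). The low-background clusters held 4.23% of all shared sites, 5.32% of the summed shared pileup in replicate 1 and 4.75% in replicate 2. All clusters together held 8.51% and 13.3% of that sum.

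**Figure D2:**
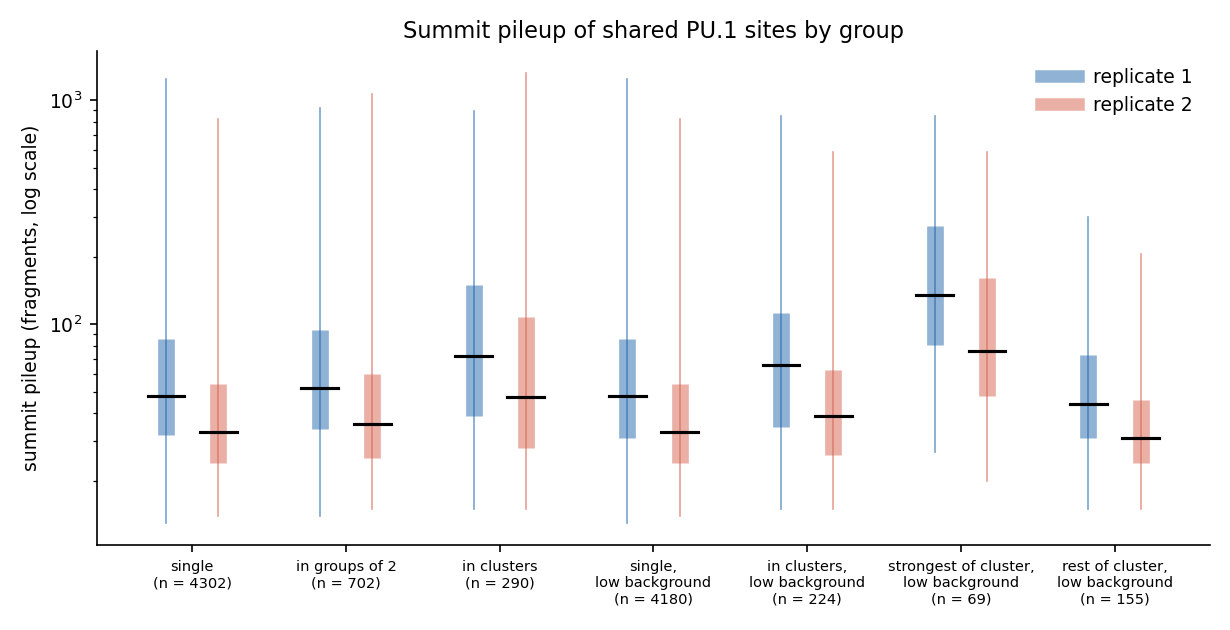
Summit pileup (fragments, log scale) of single sites, sites in groups of 2 and clustered sites, and of the low-background classes, in replicate 1 (blue) and replicate 2 (red). Black lines are medians, bars the quartiles and thin lines the lowest and highest site. Clustered medians of 72 and 47.5 lie above single-site medians of 48 and 33. In low-background clusters the sites other than the strongest have medians of 44 and 31, lowered by taking out each cluster's strongest site.

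Pileups within a cluster were uneven. The strongest site by replicate 1 pileup had medians of 135 in replicate 1 and 76 in replicate 2 over the 69 low-background clusters, and the other 155 sites had medians of 44 and 31. Single sites of low background had medians of 48 and 33, so the other sites of a cluster differed from them by -0.13 and -0.09 on the log2 scale. The strongest site is high by selection in replicate 1. The other sites are lowered by the same selection, since each cluster's highest site was taken out, while single sites had none removed. These values are a description and do not show whether the rest of a cluster resembles single sites. For the shares that follow, the strongest site was taken in each replicate by its own pileups, so it is high by selection in both. Over all 83 clusters the strongest site gave a median of 51.0% of a cluster's summed pileup in replicate 1 and 48.7% in replicate 2. It was at least 2 times the second site in 33 clusters (39.8%) in replicate 1 and in 30 (36.1%) in replicate 2, so a single dominant site was not the rule. The highest and lowest pileup of a cluster differed by a median of 1.92 on the log2 scale in replicate 1 and 1.53 in replicate 2. In 32 of the 83 clusters at least 1 site had a replicate 1 pileup of 30 or less, while in 3 clusters every site reached 100.

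The named clusters ranged from a single dominant site to several near-equal ones. On chromosome 23 (27655117 to 27670722) the pileups were 392, 38 and 32 in replicate 1 and 276, 30 and 24 in replicate 2. On chromosome 25 (1824679 to 1835317), the low-background cluster of highest summed pileup, they were 196, 849 and 63 in replicate 1 and 107, 586 and 31 in replicate 2. On chromosome 5 (46862334 to 46879553) a site of 890 and 545 stood beside sites of 155, 49 and 88 in replicate 1 and 56, 33 and 35 in replicate 2. In each of these 3 clusters the same site held at least 75.3% of the summed pileup in both individuals. The second of the chromosome 5 sites had high background.

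The low-background clusters with the most sites were less uneven. On chromosome 6, outside the block described above, 5 sites from 93936552 to 93951211 had pileups of 100, 429, 123, 40 and 149 in replicate 1. In replicate 2 they had 77, 251, 66, 36 and 102. On chromosome 1a, the 5 sites had 49, 145, 151, 140 and 73 in replicate 1 and 48, 83, 84, 52 and 27 in replicate 2, so 3 middle sites were near-equal in replicate 1. On chromosome 2 (154765344 to 154785843) the values were 96, 165, 68, 31 and 115, then 39, 126, 31, 26 and 77. On chromosome 21 (13448025 to 13457005) they were 72, 72, 50, 39 and 209, then 51, 59, 22, 31 and 129. The remaining low-background cluster of 5 sites, named after its values were seen, lay on chromosome 22a (124230357 to 124251046). Its pileups were 83, 45, 40, 37 and 80 in replicate 1 and 39, 28, 30, 28 and 44 in replicate 2. The strongest site was the same in both individuals in the first 4 of these clusters and not on chromosome 22a, where the end sites were close in pileup. Every site of these clusters was lower in replicate 2.

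**Figure D3:**
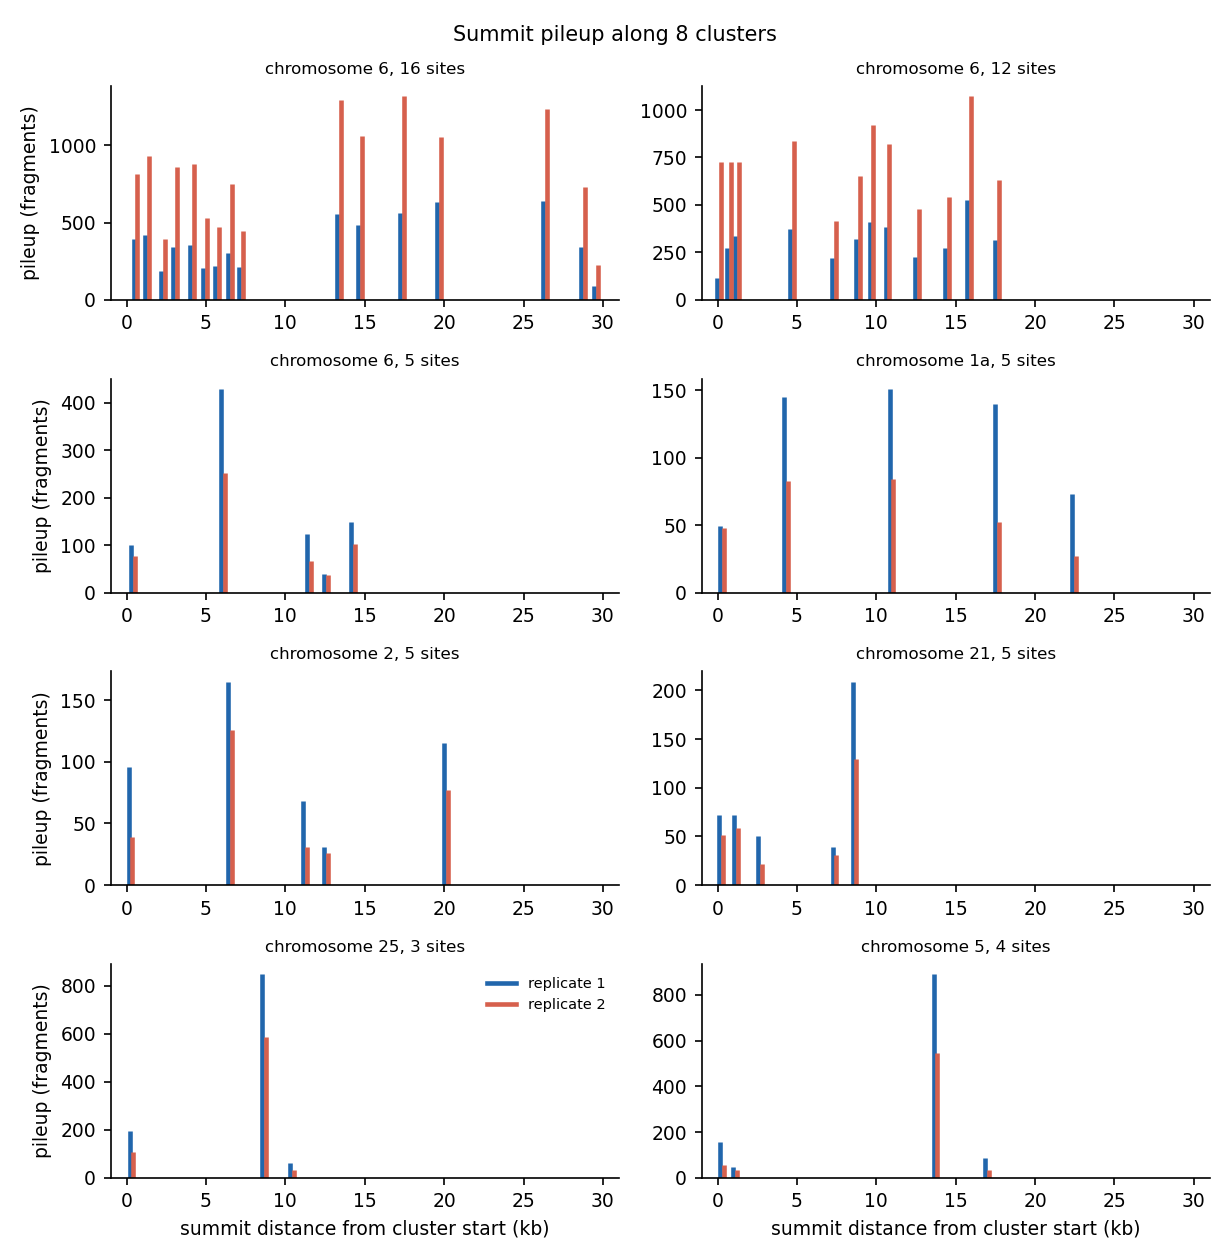
Summit pileup (fragments, linear scale) against summit distance from the start of the cluster (kb) for 8 named clusters, with 1 pair of bars per site for replicate 1 (blue) and replicate 2 (red). In the top 2 panels, both from the chromosome 6 block, replicate 2 is higher at every site, and in the other 6 panels replicate 1 is higher at every site.

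The same site was strongest in both individuals more often in clusters of 3 than in larger clusters pooled. This difference was not tested, and the share showed no steady trend with cluster size. The shares are not corrected for the number of sites that could be strongest, which grows with cluster size. A tie counted as not the same. The strongest site was the same in 60 of 83 clusters (72.3%, interval 61.4% to 81.6%) and in 53 of the 69 low-background clusters (76.8%, interval 65.1% to 86.1%). For the 67 clusters of 3 sites it was the same in 51 (76.1%, interval 64.1% to 85.7%), and for the 16 larger clusters in 9 (56.3%, interval 29.9% to 80.2%). Among the larger ones it was the same in 4 of the 9 with 4 sites and 4 of the 5 with 5 sites. It was also the same in the 12-site cluster, but not in the 16-site cluster. The full order of sites was identical in 47 of 83 clusters, 43 of them clusters of 3 and 4 of them larger. Across the 69 low-background clusters the log2 summed pileup of the individuals had Pearson's r = 0.96 and Spearman's rho = 0.96, and the log2 range within a cluster had r = 0.91 and rho = 0.88. These are descriptions across clusters that share the same 2 libraries.

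In clusters of 3 the strongest site was the first or last in 46 of 67 clusters in replicate 1 (68.7%, interval 56.2% to 79.4%) and in 50 in replicate 2 (74.6%, interval 62.5% to 84.5%), and 66.7% of their sites are first or last. Over all sizes it was first or last in 52 of 83 in replicate 1 and 55 of 83 in replicate 2. In the low-background clusters the 138 end sites had median pileups of 72 and 41, and the 86 inner sites 49.5 and 32. The medians of inner sites thus differed by -0.54 and -0.36 on the log2 scale. The quartiles were closer, at 34 and 109.75 for end sites and 35.5 and 110 for inner sites in replicate 1. In replicate 2 they were 27 and 64.25 for end sites and 25.25 and 58.75 for inner sites.

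Pileups in clusters were mostly lower in replicate 2, as at other shared sites. The lists were not scaled to each other, so only the difference between classes of sites is read. The median log2 ratio of replicate 2 to replicate 1 was -0.52 at clustered and -0.50 at single sites. Replicate 2 had the higher pileup at 62 of the 290 clustered sites (21.4%, interval 16.8% to 26.6%), against 14.3% of all shared sites and 606 of 4302 single sites (14.1%). In the low-background clusters it did so at 13 of 224 sites (5.80%, interval 3.13% to 9.72%), against 582 of 4180 single sites of low background (13.9%). The excess over all sites thus lay in the clusters with high background, and 35 of the 62 sites were those of the chromosome 6 block. Without the clusters with high background the share was below that of single sites. Among high-background sites, replicate 2 was higher at 47 of 53 clustered sites (88.7%) and at 24 of 122 single sites (19.7%). The ratio fell with replicate 1 pileup, which is its own denominator, so this fall is not read as a trait of the sites. Within 5 equal bins of that pileup the low-background medians of clustered and single sites differed by -0.07 to 0.01.

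By cluster, the summed pileup was lower in replicate 2 in 73 of 83 clusters and in 68 of the 69 low-background clusters. Every site was higher in replicate 2 in 7 clusters, of which 6 held high-background sites alone. The ratio varied as much within clusters as among single sites: its SD was 0.443 pooled within the low-background clusters and 0.478 over the single sites of low background. Over all 290 members the SD was 0.762, and 0.451 pooled within clusters.

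The clusters of largest and smallest spread show this range. In the 3-site cluster of the chromosome 6 block (26108791 to 26112277) pileups were 48, 232 and 284 in replicate 1 and 332, 451 and 361 in replicate 2. On chromosome 2 (79157345 to 79171613) they were 37, 101 and 83, then 22, 116 and 207, and the last 2 sites had high background. On chromosome 10 (59836387 to 59856356), a low-background cluster, they were 111, 59 and 88, then 24, 45 and 48, so the strongest site of replicate 1 was the weakest of replicate 2. At the even end, the cluster on chromosome 3 (9548629 to 9559782) had 23, 275 and 44, then 18, 218 and 36. On chromosome 14 (32945639 to 32959311) the values were 86, 150 and 33, then 38, 71 and 16.

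**Figure D4:**
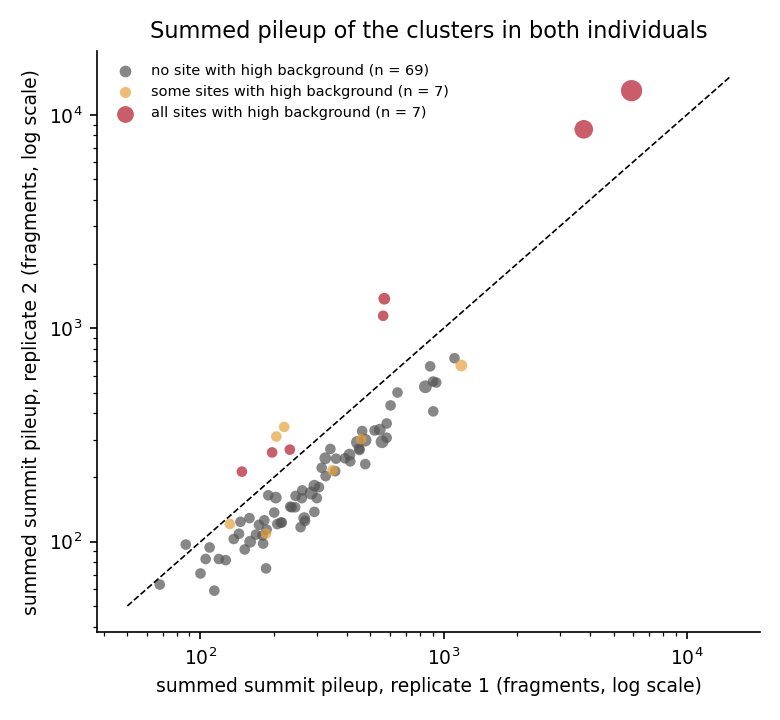
Summed summit pileup of each of the 83 clusters in replicate 1 and replicate 2 (fragments, both axes log scale), with point area growing with the number of sites and the dashed line marking equal values. Of the 69 low-background clusters 68 lie below the line, and the 7 clusters of high background alone lie above it.

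The 2 largest clusters of the chromosome 6 block also had the most sites and the highest sums of all 83. The 16-site cluster had summed pileups of 5926 and 12974, with its strongest sites at 636 and 1317. These were different sites and gave 10.7% and 10.2% of the sum. The 12-site cluster (26172133 to 26189947, 17.8 kb) had sums of 3768 and 8548. Its first 3 sites overlapped a single replicate 2 peak of pileup 726, so they are not independent in replicate 2. The sum of 8548 counts that peak 3 times. The gap between these 2 clusters was 13134 bp, just outside the joining distance. The last cluster of the block (26211068 to 26218014) had pileups of 224, 20, 39 and 287 in replicate 1 and 600, 52, 132 and 591 in replicate 2.

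Clusters were found on 23 of the 25 autosomes. Chromosome 6 had the highest share of its shared sites in clusters, 47 of 275 (17.1%), but 12 of those 47 had low background. Chromosome 5 had 29 of 250 (11.6%, interval 7.91% to 16.2%) in 9 clusters, and chromosome 14 had 22 of 225 (9.78%, interval 6.23% to 14.4%) in 7. None was found among 262 shared sites on chromosome 8 or 195 on chromosome 18. Taken per site, this allows shares of up to 1.15% and 1.54% by the limit of 3 counts. By the exact Clopper-Pearson interval it allows up to 1.40% and 1.87%. Clustered sites come at least 3 together, so these limits and the intervals by chromosome treat dependent sites as independent and are too narrow. The median distance from a cluster to the nearest other on its chromosome was 6.42 Mb, and 12 of the 83 lay within 100 kb of another, 7 of them low-background clusters.

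**Figure D5:**
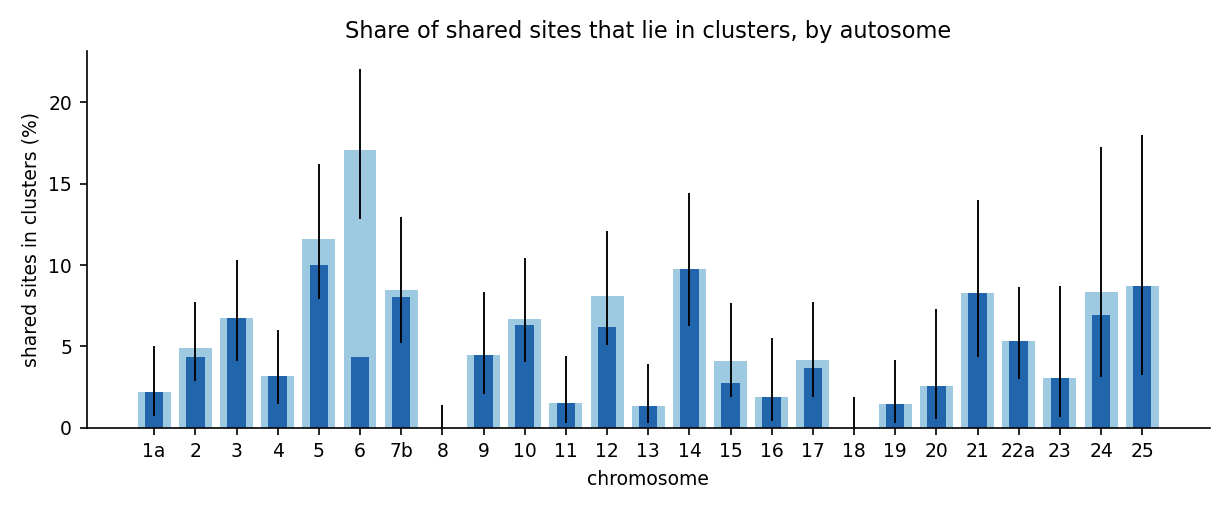
Share of shared sites that lie in clusters (%), by autosome, with exact Clopper-Pearson 95% intervals as black lines. The intervals treat sites as independent and are too narrow. Light bars are all clustered sites. Narrow dark bars are clustered sites without high background themselves, including such sites in clusters where another site has it. Chromosome 6 reaches 17.1% in all, and chromosomes 8 and 18 have none.

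Few gaps lay near the joining distance. Within clusters 10 gaps lay in the last 1 kb below the limit of 12500 bp, and 5 gaps in the first 1 kb above it would have made or extended a cluster. Inside the limit, pileups of the sites after such gaps ran from 28 to 890 in replicate 1, and outside it from 24 to 185. The spans also held unshared peaks: 16 replicate 1 peaks in 14 clusters and 2 replicate 2 peaks. Over all placed autosomes, 46.6% of the 11362 replicate 1 peaks were shared. The density of unshared peaks inside and outside the spans was not compared. Stitching each list alone gave 1106 sites in 309 clusters in replicate 1 and 389 in 107 in replicate 2. Each of the 83 clusters fell within 1 group in either list. For the replicate 1 list this is fixed by the rule, since the clusters were joined from its own peaks. In that list 34 of the clusters were larger. In the replicate 2 list 71 had the same size, 10 were larger and 2 were smaller.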

How the data were processed

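The 2 PU.1 ChIP peak lists were used, and the input libraries entered through the authors' peak calling. MACS 2.1.1.20160309 called the peaks in paired-end mode, per the file headers, against the same individual's input, at a q-value threshold of 0.05 and with at most 1 duplicate fragment kept, without pooling. The headers name bwa alignments, and the submitters' processing notes list Bowtie2. The deposited values are the summit pileup (a fragment coverage signal), the fold enrichment ratio over background, and −log10 p and q values. Background was computed as (pileup + 1)/fold enrichment − 1. The deposited repeat family table was not used here.

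Sharing, joining and summaries were computed with Python 3.11.15, pandas 2.3.3, numpy 2.4.6 and SciPy 1.17.1, and the joining was tested on simulated data. Proportions carry exact Clopper-Pearson 95% intervals, and those over sites treat neighbouring sites as independent. Class medians were compared per individual, with an exact sign-flip permutation test over individuals, and sites were not replicates in that test. The members and lists were chosen with earlier results of these data known. High background is defined after an earlier account of these data. The low-background class was first taken as single low-background sites (237) and then, after values were seen, as clusters free of high-background sites (224 sites). Clusters named are those with the most sites, highest summed pileup, widest span, shortest spacing, and largest and smallest spread of the ratio. The 3 high-background clusters on chromosomes 5, 12 and 15 were named after their values were seen. The motif comparison, the gene list and the marker check planned for these regions were not run, because no genome of the files' build was at hand. Alternatives were other joining distances, overlap and q limits, replicate 2 coordinates, shared peaks counted once, fold enrichment, means, 5 equal bins of pileup and each list alone. Leaving out high-background sites or the chromosome 6 block was added after seeing the data.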

Additional observations from a re-analysis of the deposited data

Results flagged for a closer look

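Outside the placed autosomes, the same joining of shared sites gave 3 clusters on unplaced sequences, data that the comparisons above did not use. They held 10 of 213 shared sites, the largest had 4 sites, and 6 of the 10 had high background. Their median fold enrichment was 3.75 in replicate 1 and 3.27 in replicate 2. On chromosome X it gave 1 cluster, with 3 of 89 shared sites, none of high background, and a median fold enrichment of 18.2 and 8.00.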

How the results depend on the processing

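The number of clustered sites (290 in 83 clusters) followed the joining distance and the list used. It was 125 sites in 34 clusters at 5 kb, 562 in 153 at 25 kb and 136 in 35 with a −log10 q of at least 10 in both lists. Each list alone gave 389 to 1106 sites in 107 to 309 clusters. The log2 pileup difference between clustered and single sites (0.56) stayed above 0 in every setting that used pileup. It was 0.79 at 5 kb, 0.43 at 25 kb, 0.43 with the q limit, 0.50 with replicate 2 coordinates, 0.64 with means and 0.33 to 0.50 with 1 individual left out. It was 0.34 without high-background sites and 0.38 without the chromosome 6 block. With fold enrichment in place of pileup the difference nearly vanished, at 0.022, the mean of 0.043 in replicate 1 and 0 in replicate 2. With fold enrichment and no high-background sites it was 0.29. The difference of the log2 ratio (-0.02) was 0.26 at 5 kb, 0.027 with fold enrichment, 0.045 within 5 bins of pileup, -0.089 without high-background sites and -0.074 without the block. The pileup range within clusters (1.73) was 1.44 to 1.90 with 1 individual left out. The same strongest site was found in 68.6% to 79.7% of clusters in every setting run. The causes were not tested. With 1 individual left out, the ratio and the strongest-site share have no value. The motif result and its alternatives were not run. No paired analysis was possible because the input libraries had no values of their own in the lists, while the differences between site classes were already taken within each individual. With 1 ChIP library per individual, the spread between libraries of one line is unknown, and pileups of 15 to 30 fragments limit the order of weak sites.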
